A study of Homo sapiens with 9 samples.

Results

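The 41 listed genes encode cyclins, cyclin-dependent kinases (CDKs), their inhibitors and the regulators that carry cells through mitosis. A gene was taken as measured where a probe set of the array carried its symbol and no other. That held for 40 of the 41 genes, each with 1 probe set, among 22109 genes measured in all. CDKN2C had no such probe set and was not analysed here.

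All 9 samples came from MDA-MB-231, an established human breast cancer cell line derived from a pleural effusion, grown in the same medium with serum. Each group had 3 arrays. The 20 h group received YM-155 (sepantronium bromide) at 14.6 ng/ml, the concentration the submitters give as its LC50. The 8 h group received YM-155 in steps that summed to 83 ng/ml and was watched so that no cell death was evident. The control group had no treatment, with no time and no vehicle given for it, although YM-155 was dissolved in DMSO. YM-155 is a small molecule known as a suppressor of survivin, the protein encoded by BIRC5. Dose and time differed together, so neither can be told apart from the other in any comparison of the 3 groups. Whether the 3 arrays of a group stem from different cultures is not stated, so the p-values cover only the variation among these arrays and part of it may be technical.

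Progress through the cell cycle is driven by CDKs, which are active only when bound to a cyclin. D-type cyclins with CDK4 and CDK6 act in G1, cyclins E and A with CDK2 start and sustain S phase, and cyclins A and B with CDK1 drive mitosis. Inhibitor proteins and inhibitory phosphorylation hold the kinases back, and ubiquitin ligases of the SCF and APC/C families destroy the cyclins and other regulators in a fixed order. Many of these genes are themselves transcribed in waves, through E2F factors around S phase and through MuvB complexes, B-MYB and FOXM1 in G2 and mitosis.

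Levels are RMA values on the log2 scale, so a difference of 1 is a 2-fold change. A gene is called higher or lower where its adjusted p in limma, over all 22109 genes, was under 0.05. The median level over all genes lay between 3.83 and 3.92 on every array. By their mean over the 9 arrays, all 9 measured line markers (VIM, CD44, AXL and others) and all 11 measured proliferation markers were above the median of all genes, 3.89. By the same mean, 5 of 10 luminal markers were below it, with PGR the lowest and KRT19, at 7.78, the highest. All 9 measured leukocyte markers were below that median too. In their 20 h means, CD79A, CD14 and NKG7 were above it. Control replicate 3 stood apart from the other controls. Its differences from control replicates 1 and 2, over the 11055 genes at or above the median level, had SDs of 0.312 and 0.313, against 0.187 between those replicates. Among the 40 genes its level ran from 0.67 below (CDKN3) to 0.70 above (MYBL2) the mean of the other controls. The closest pair was 8 h replicates 1 and 2, with an SD of 0.147.

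After 20 h, most of the engine was lower. Of the 40 genes, 30 were called, where 30.3% of all genes were. Of these, 25 were lower and 5 higher than in control, against a background of 17.2% of all genes lower and 13.1% higher. The 25 lower genes ran from CDKN1B, at 80.3% of control, to CCNA2, at 18.1%. At least 2-fold, 18 were lower and 2 higher, where 3.91% and 2.65% of all genes passed. On 26 genes every 20 h array lay below every control array and on 7 every one lay above, where 21.4% and 19.2% of all genes did so. The median log2 change of the 40 genes was -0.90, against 0.03 over all genes. In bulk RNA, fewer cells in S phase or mitosis and less of an mRNA per cell cannot be told apart. The mean level of the 11 proliferation markers lay between 6.47 and 6.59 on the 20 h arrays, between 8.04 and 8.07 on the 8 h arrays and between 8.36 and 8.47 on the control arrays. Their part in the values below was not tested.

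After 8 h, fewer genes differed. Of the 40 genes, 14 were called, where 12.2% of all genes were. Of these, 10 were lower and 4 higher than in control, against 6.28% and 5.93% of all genes. Every 8 h array lay below every control array on 19 genes and above on 5, where 14.5% and 12.9% of all genes did so. The median change was -0.22, against -0.00 over all genes. Only SKP2, BORA and CCNF fell at least 2-fold, and 0 rose that far, where 0.285% of all genes were lower by that much and 1.05% higher. The count of lower genes was 6 with 8 h replicates 1 and 2 taken as 1 sample, 6 without 8 h replicate 1 and 11 without control replicate 3. The count of higher genes was 2 without 8 h replicate 1 and 6 without control replicate 3.

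In the direct comparison of the treated groups, 26 of the 40 genes were called, where 22.6% of all genes were. Of these, 22 were lower at 20 h than at 8 h and 4 higher, against 13.6% and 8.95% of all genes. At least 2-fold, 10 were lower and 1 higher (CDKN1C), where 1.79% and 1.12% of all genes passed. Every 20 h array lay below every 8 h array on 25 genes and above on 7, where 20.5% and 17.8% of all genes did so. The median difference was -0.59. Without control replicate 3, 25 genes were lower and 6 higher at 20 h against control, and 23 were lower and 4 higher at 20 h against 8 h. Both comparisons with control share the control arrays, and each gene's values in them are set side by side below.

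**Figure D1:**
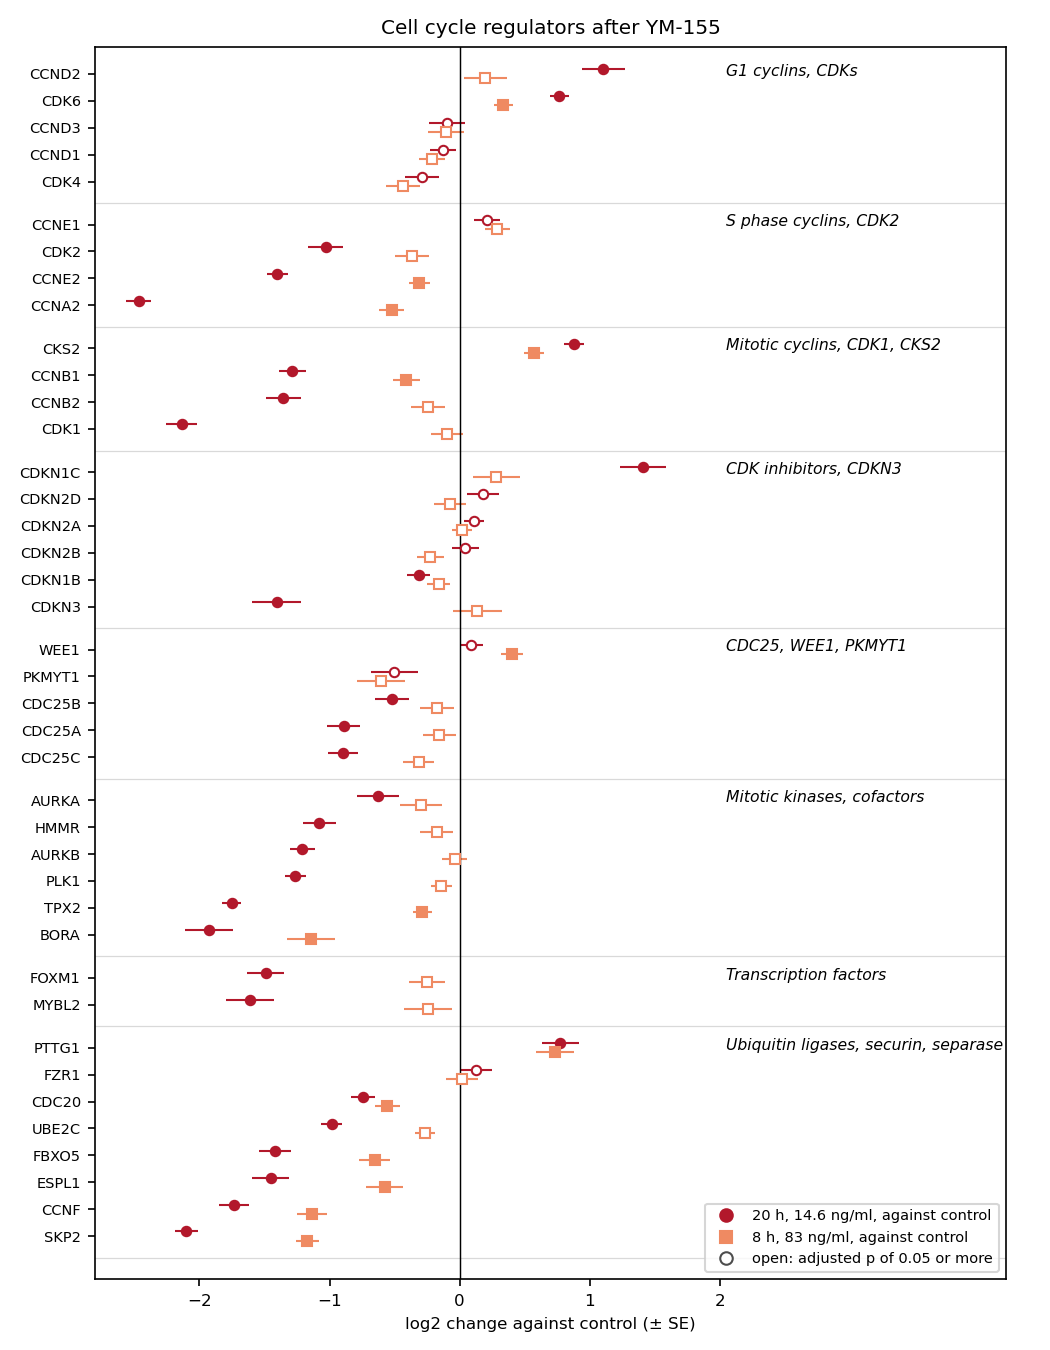
Log2 change against control, with its SE, for the 40 genes in 8 role groups. Circles stand for 20 h and squares for 8 h, and open symbols have an adjusted p of 0.05 or more. At 20 h the filled symbols run from CCNA2, at -2.47, to CDKN1C, at 1.41. At 8 h they run from SKP2, at -1.17, to PTTG1, at 0.73.

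Promoter sequence was used for 29 of the 40 genes, as 44 windows from 250 bases before to 50 after a RefSeq start site (GRCh38.p14). Some genes have several starts. None was used for CCND1, CCND2, CCNE2, CDK2, CDKN1C, WEE1, PKMYT1, AURKA, TPX2, FOXM1 and UBE2C. For the 40 genes, any window on the chromosome that carries CCNE2 was left out. That filter was not applied to the windows of all genes. The windows were searched on both strands for the CHR element of G2 and M phase promoters in a first form, TTTGAA, as well as a second, which reads TTTAAA, for the CCAAT box bound by NF-Y, and for 2 E2F-like strings, one being TTGGCGC while the other reads TTCGCGC. The first CHR form, TTTGAA, was in 34.1% of the 44 windows and in 15.2% of the 35116 windows of all genes. TTTAAA was in 22.7% and 12.2%, the CCAAT box in 61.4% and 34.6%, and an E2F-like match in 9.09% and 5.06%. Both TTTGAA and a CCAAT box were in 31.8% of these windows and in 5.9% of all windows. These shares describe letters, not bound sites, and no test was made on them.

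The 250 bases before the start site are shown for CCNB2 and PLK1, which were lower at 20 h and hold both elements, for SKP2, which was lower by more than 2-fold at both times and holds neither, and for CKS2, which was higher and holds both. Each is on the plus strand and reads 5′ to 3′. Capitals mark the matches, where ATTGG is CCAAT and TTCAAA is TTTGAA on the other strand. The regions are chr15:59104896-59105145 for CCNB2, chr16:23678639-23678888 for PLK1, chr5:36151861-36152110 for SKP2 and chr9:89310945-89311194 for CKS2.
CCNB2: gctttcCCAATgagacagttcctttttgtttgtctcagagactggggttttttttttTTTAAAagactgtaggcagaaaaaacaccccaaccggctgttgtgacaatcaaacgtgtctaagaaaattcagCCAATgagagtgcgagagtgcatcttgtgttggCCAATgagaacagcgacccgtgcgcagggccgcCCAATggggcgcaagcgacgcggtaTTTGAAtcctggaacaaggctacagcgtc
PLK1: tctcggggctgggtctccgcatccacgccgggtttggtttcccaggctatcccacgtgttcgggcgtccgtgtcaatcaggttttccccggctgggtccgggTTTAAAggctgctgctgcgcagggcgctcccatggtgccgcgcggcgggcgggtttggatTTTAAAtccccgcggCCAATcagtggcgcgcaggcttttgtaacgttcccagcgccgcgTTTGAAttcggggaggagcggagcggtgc
SKP2: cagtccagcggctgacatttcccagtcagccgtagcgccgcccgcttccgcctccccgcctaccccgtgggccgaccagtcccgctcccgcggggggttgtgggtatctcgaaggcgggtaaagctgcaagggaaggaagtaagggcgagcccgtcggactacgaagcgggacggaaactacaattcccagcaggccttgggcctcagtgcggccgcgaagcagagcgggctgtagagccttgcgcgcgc
CKS2: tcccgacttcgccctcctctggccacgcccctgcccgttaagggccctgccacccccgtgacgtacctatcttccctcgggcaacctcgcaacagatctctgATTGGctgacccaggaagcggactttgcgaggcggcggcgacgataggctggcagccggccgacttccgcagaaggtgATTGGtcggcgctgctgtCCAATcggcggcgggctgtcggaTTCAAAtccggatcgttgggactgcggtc
CCNB2 has 4 CCAAT boxes, the last 3 of them 33 bases apart, and TTTGAA beginning 29 bases before the start. PLK1 has TTTGAA at the same distance, 1 CCAAT box and 2 copies of TTTAAA. CKS2 has TTTGAA at that distance too, on the minus strand, with 3 CCAAT boxes. In the SKP2 sequence none of the motifs searched was found.

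**Figure D2:**
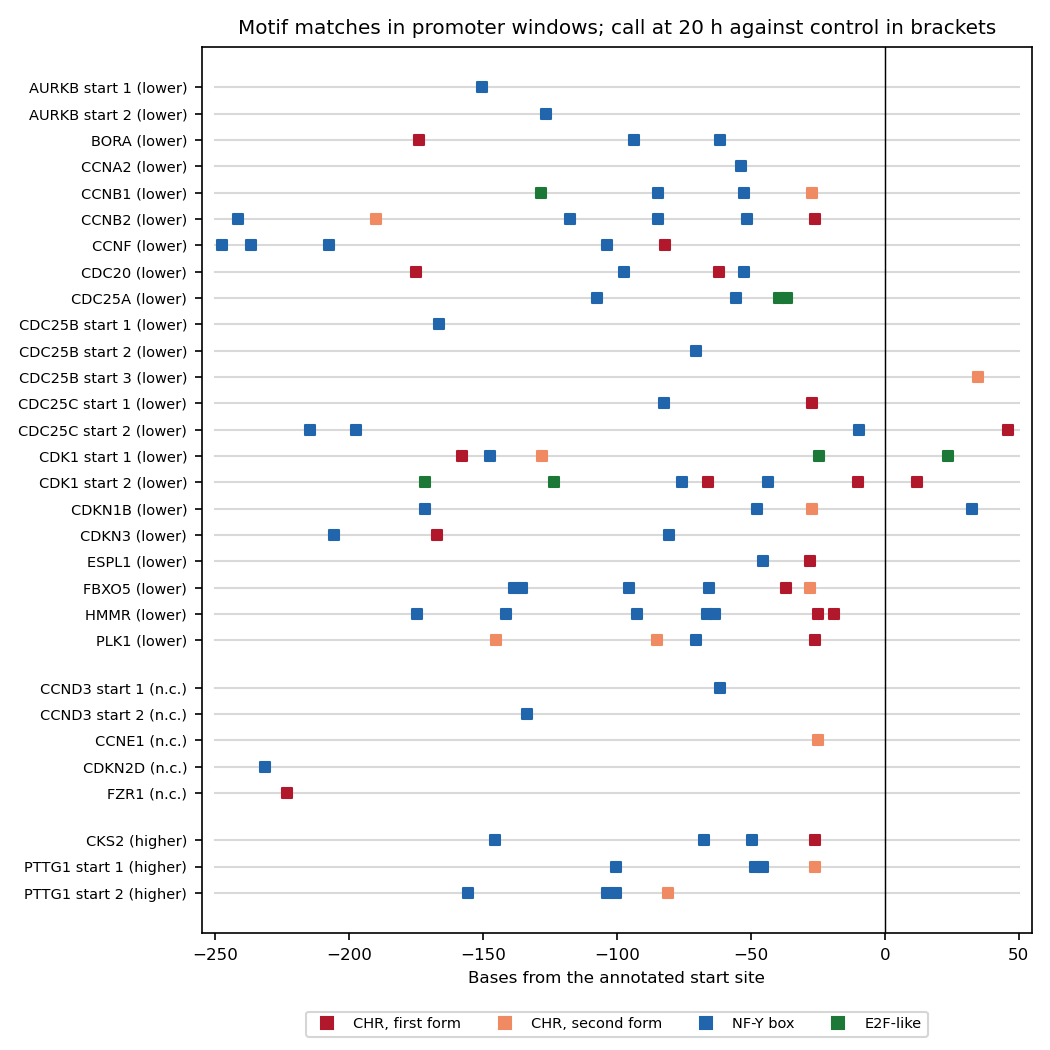
Motif matches along the 30 promoter windows, of 23 genes, that hold at least 1. The axis gives bases from the annotated start site, rows are windows, and the call at 20 h against control follows each gene name (n.c., not called). TTTGAA is drawn as the first form of the CHR, TTTAAA as the second, and CCAAT as the NF-Y box. CCNB2, PLK1, ESPL1, HMMR and CKS2 each have a first-form CHR within 31 bases of the start. So do CDC25C and CDK1, each in 1 of its windows.

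A gene was counted where any of its windows held a motif. No share by gene was taken over all genes, and the split by call was not tested. Of the 19 genes with a window that were lower at 20 h, 11 held TTTGAA and 17 a CCAAT box. Of the other 10, 2 held TTTGAA (CKS2 and FZR1) and 4 a CCAAT box. CKS2 and PTTG1, the 2 higher genes on this plot, both carried CCAAT boxes. PTTG1 had TTTAAA in place of TTTGAA.

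Of the 5 G1 cyclins and kinases, 2 were called at 20 h and 1 at 8 h, all higher. Among all genes, 30.3% were called at 20 h and 12.2% at 8 h, with 13.1% and 5.93% higher. CDK6, a partner of the D-type cyclins, was at 8.53, 8.48 and 8.44 on the 20 h arrays, 8.07, 8.01 and 8.07 on the 8 h arrays and 7.64, 7.75 and 7.75 on the control arrays. The 3 groups did not overlap. CDK6 rose by 0.77 (SE 0.07, adjusted p = 2.54e-05) at 20 h and by 0.33 (SE 0.07, adjusted p = 0.0146) at 8 h, and was higher at 20 h than at 8 h by 0.43 (adjusted p = 0.00206). The 8 h call ended without control replicate 1 (adjusted p = 0.0554) or 8 h replicate 1 (0.0557). CCND2, which encodes cyclin D2, was at 5.69, 5.86 and 5.62 on the 20 h arrays, 4.67, 4.93 and 4.84 on the 8 h arrays and 4.33, 4.49 and 5.04 on the control arrays. The 20 h arrays were the highest, while the 8 h and control arrays overlapped. CCND2 rose by 1.11 (SE 0.16, adjusted p = 0.000489) at 20 h, and its change of 0.20 at 8 h (adjusted p = 0.543) was called only without control replicate 3 (0.043).

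Cyclin D1, D3 and CDK4 were called in no comparison. CCND1 changed by -0.13 (adjusted p = 0.402) at 20 h and -0.21 (0.242) at 8 h, and CCND3 by -0.10 at both times (0.657 and 0.736). CDK4 stood at 8.49, 8.51 and 8.46 on the 20 h arrays, 8.49, 8.38 and 8.15 on the 8 h arrays and 8.55, 8.73 and 9.05 on the control arrays. Every treated array was thus below every control array. Its changes were -0.29 (adjusted p = 0.131) at 20 h and -0.44 (0.0568) at 8 h, and both were called lower without control replicate 1 (0.0495 and 0.0316). CDK4 at 8 h was called in 5 of 19 alternatives, among them quantile normalization again (0.0424).

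Cyclin A2 and cyclin E2 fell while cyclin E1 did not. CCNA2, whose product works with CDK2 in S phase and CDK1 in G2, was at 6.24, 6.29 and 6.46 on the 20 h arrays, 8.19, 8.24 and 8.40 on the 8 h arrays and 8.85, 8.87 and 8.68 on the control arrays. No 2 groups overlapped. It fell by 2.47 (SE 0.10, adjusted p = 1.23e-07) at 20 h, the largest fall of the 40 genes, and by 0.52 (SE 0.10, adjusted p = 0.00579) at 8 h. CCNE2, one of the E-type cyclins of S phase entry, was at 6.53, 6.55 and 6.65 on the 20 h arrays, 7.65, 7.57 and 7.78 on the 8 h arrays and 8.01, 7.99 and 7.93 on the control arrays. Here too the groups were apart. CCNE2 fell by 1.40 (SE 0.08, adjusted p = 1.04e-06) at 20 h and by 0.31 (SE 0.08, adjusted p = 0.0335) at 8 h. The 8 h call was lost in 8 of 19 alternatives, among them leaving out control replicate 1 (adjusted p = 0.0981) or 2 (0.0878), or 8 h replicate 1 (0.101) or 2 (0.123), and taking the replicate number as a block (0.0651).

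CDK2, the partner of both cyclins, was at 48.9% of control at 20 h (log2 change -1.03, SE 0.13, adjusted p = 0.000177), and its change of -0.37 at 8 h was not called (0.112). CCNE1 changed by 0.21 at 20 h (adjusted p = 0.144) and 0.29 at 8 h (0.0889). Its 8 h arrays were all above its controls, and both changes were called higher without control replicate 3 (0.0198 and 0.0154) and after quantile normalization again (0.0152 and 0.0493). The 8 h change was also called with array weights (0.0191).

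The mitotic kinase and its cyclins fell at 20 h, and CKS2 rose. CDK1, the kinase that starts mitosis, was at 6.04, 5.94 and 5.65 on the 20 h arrays, 7.87, 7.85 and 8.03 on the 8 h arrays and 8.18, 8.02 and 7.84 on the control arrays. The 8 h and control arrays overlapped, with the 20 h arrays far below both. CDK1 fell by 2.14 (SE 0.12, adjusted p = 9.24e-07) at 20 h against control and by 2.04 (adjusted p = 5.11e-06) against 8 h. At 8 h it stood at 93.5% of control (adjusted p = 0.716).

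CCNB1, which encodes cyclin B1, was at 6.41, 6.42 and 6.41 on the 20 h arrays, 7.25, 7.25 and 7.36 on the 8 h arrays and 7.78, 7.85 and 7.47 on the control arrays. It fell by 1.29 (SE 0.10, adjusted p = 7.42e-06) at 20 h and by 0.41 (SE 0.10, adjusted p = 0.0263) at 8 h. The 8 h call was lost without control replicate 1 (0.0892) or 2 (0.0923), without 8 h replicate 1 (0.0884) or 2 (0.0867) and with the replicate block (0.0531). It was also lost with only the 8 h and control arrays in the fit (0.0693). Taking 8 h replicates 1 and 2 as 1 sample lost it too (0.086). CCNB2, for cyclin B2, was at 4.90, 5.07 and 5.01 on the 20 h arrays, 6.14, 6.11 and 6.07 on the 8 h arrays and 6.43, 6.60 and 6.01 on the control arrays. Control replicate 3 was the lowest control for both cyclins and, for CCNB2, fell below all 8 h arrays. CCNB2 fell by 1.35 (SE 0.13, adjusted p = 3.03e-05) at 20 h, and its 8 h change of -0.24 (0.317) was called only without that array (0.0174).

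CKS2, a small CDK-binding subunit, went the other way. It was at 9.35, 9.36 and 9.36 on the 20 h arrays, 9.10, 9.02 and 9.02 on the 8 h arrays and 8.41, 8.58 and 8.44 on the control arrays. The groups were fully apart, in the order 20 h, 8 h, control. CKS2 rose by 0.88 (SE 0.08, adjusted p = 1.34e-05) at 20 h and by 0.57 (SE 0.08, adjusted p = 0.00107) at 8 h. The difference of 0.31 between 20 h and 8 h (adjusted p = 0.0144) was lost without 8 h replicate 2 (0.0503).

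**Figure D3:**
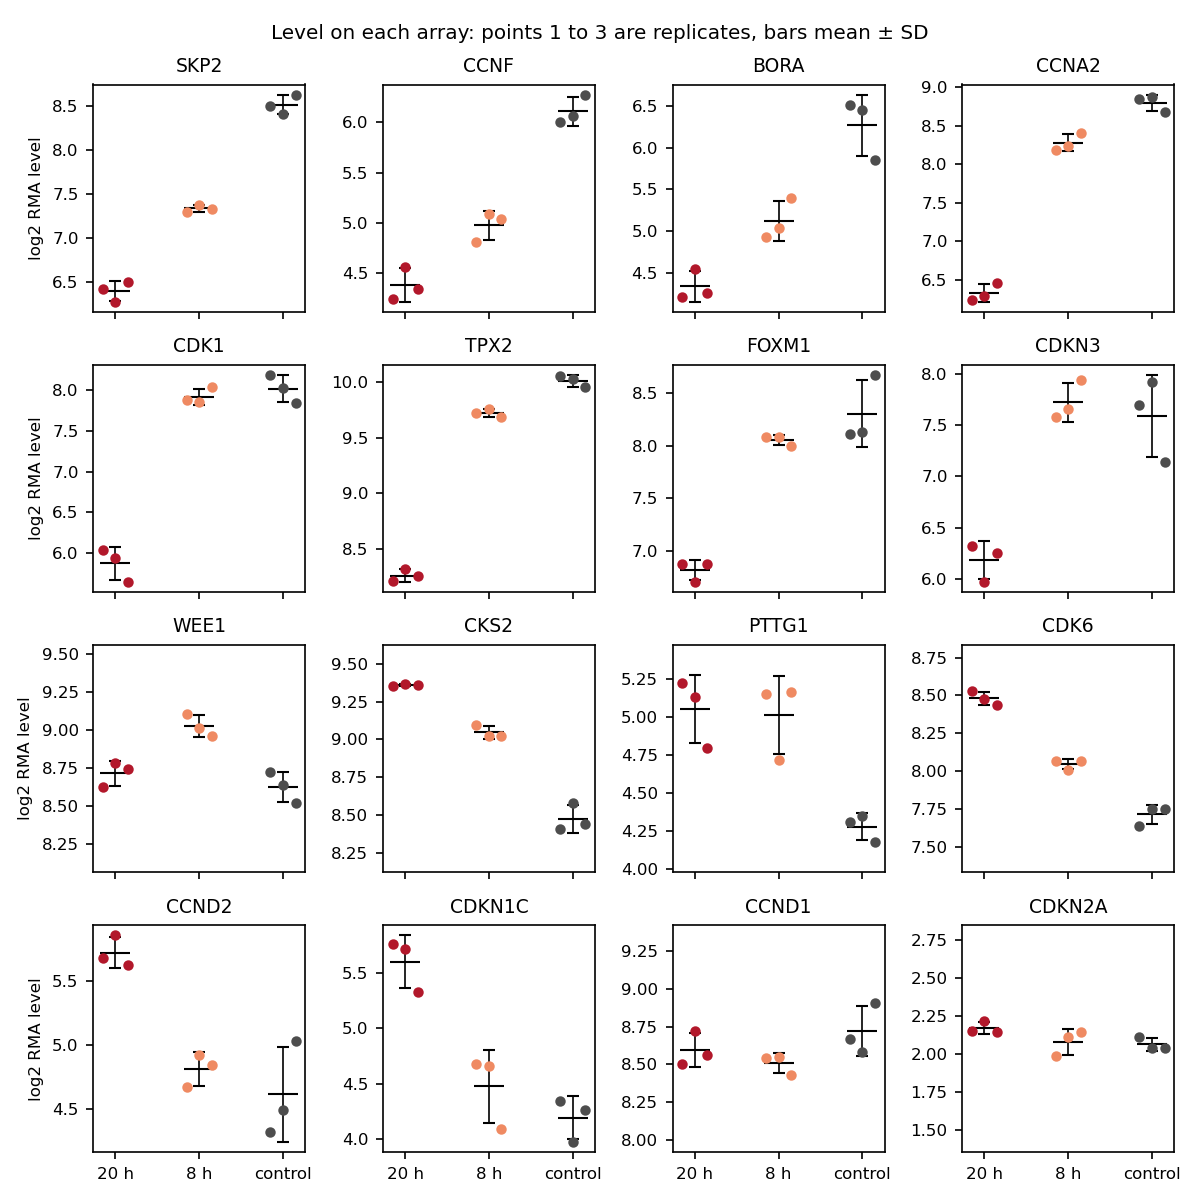
Level of 16 genes on every array (log2 RMA), with 20 h, 8 h and control from left to right and replicates 1 to 3 in order within each. Bars give mean ± SD (n = 3). SKP2, CCNF and BORA at 8 h lie between 20 h and control, CDK1 and CDKN3 at 8 h overlap control, WEE1 is highest at 8 h, and CDKN2A lies between 1.99 and 2.22 throughout.

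Of the 6 measured genes grouped as inhibitors, CDKN3 included, 1 was higher and 2 lower at 20 h. The share higher, 16.7%, lay near the 13.1% of all genes, and the share lower was 33.3% against 17.2%. The higher gene was CDKN1C. It encodes p57, an inhibitor of the CIP/KIP family, and was at 5.75, 5.72 and 5.33 on the 20 h arrays, 4.68, 4.66 and 4.09 on the 8 h arrays and 4.34, 3.97 and 4.26 on the control arrays. The 20 h arrays were above all others, and the 8 h and control arrays overlapped. The rise was 1.41 (SE 0.18, adjusted p = 0.000166) at 20 h against control and 1.12 (SE 0.18, adjusted p = 0.0014) against 8 h. At 8 h the change was 0.28 (adjusted p = 0.395). CDKN1B, which encodes p27, was at 6.49, 6.39 and 6.43 on the 20 h arrays, 6.59, 6.60 and 6.59 on the 8 h arrays and 6.88, 6.79 and 6.59 on the control arrays. It fell at 20 h by 0.32 (SE 0.09, adjusted p = 0.0188), a call lost without control replicate 1 (0.0735) or 2 (0.0608), without 20 h replicate 2 (0.06) and after quantile normalization again (0.167). Its 8 h change of -0.16 was not called (0.31).

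CDKN3, a phosphatase that removes the activating phosphate from CDKs, was at 6.32, 5.97 and 6.25 on the 20 h arrays, 7.58, 7.66 and 7.94 on the 8 h arrays and 7.70, 7.92 and 7.14 on the control arrays. Control replicate 3 was the lowest of the 6 arrays outside the 20 h group. CDKN3 fell by 1.41 (SE 0.19, adjusted p = 0.000241) at 20 h, against a change of 0.14 at 8 h (0.744).

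The INK4 genes were not called in any comparison. CDKN2D, for p19, changed by 0.18 at 20 h (adjusted p = 0.324) and -0.07 at 8 h (0.79). CDKN2A and CDKN2B lie next to each other in a region that MDA-MB-231 is known to have lost. Their levels ran from 1.99 to 2.22 and from 1.75 to 2.27 over all 9 arrays, under the median level of all genes. Every CDKN2A array at 20 h lay above its controls, by a mean of 0.11 (adjusted p = 0.333), and every CDKN2B array at 8 h lay below its controls, by a mean log2 change of -0.23 (0.216).

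Lower at 20 h were 17.2% of all genes, and 5.93% were higher at 8 h. Of the 5 enzymes that set the inhibitory phosphorylation of CDK1, 3 were called at 20 h, all lower, and 1 at 8 h, higher. WEE1, a kinase that adds it, was at 8.62, 8.78 and 8.74 on the 20 h arrays, 9.11, 9.02 and 8.96 on the 8 h arrays and 8.72, 8.63 and 8.52 on the control arrays. The 8 h arrays were above all others. WEE1 rose by 0.40 (SE 0.09, adjusted p = 0.0132) at 8 h, changed by 0.09 (0.491) at 20 h, and was lower at 20 h than at 8 h by 0.31 (SE 0.09, adjusted p = 0.026). The rise ended without 8 h replicate 1 (0.0585). The difference between 20 h and 8 h ended without 8 h replicate 1 (0.0941) or 2 (0.064), without 20 h replicate 1 (0.0813) or 3 (0.0528) and with 8 h replicates 1 and 2 as 1 sample (0.0749).

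PKMYT1, the other such kinase, changed by -0.50 (adjusted p = 0.0637) at 20 h and -0.61 (0.0597) at 8 h, with every treated array below every control array. Both were called in 3 of 19 alternatives, among them leaving out control replicate 1 (0.0383 and 0.0469).

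The CDC25 phosphatases, which remove the inhibitory phosphates, were lower at 20 h. CDC25A was at 6.08, 6.05 and 6.17 on the 20 h arrays, 6.87, 6.87 and 6.77 on the 8 h arrays and 6.84, 6.81 and 7.32 on the control arrays. CDC25C was at 4.17, 4.70 and 4.48 on the 20 h arrays, 5.00, 5.05 and 5.05 on the 8 h arrays and 5.37, 5.36 and 5.31 on the control arrays. CDC25A at 8 h overlapped control and CDC25C did not. At 20 h CDC25A fell by 0.89 (SE 0.13, adjusted p = 0.000372), CDC25C by 0.90 (SE 0.12, adjusted p = 0.000208) and CDC25B by 0.52 (SE 0.13, adjusted p = 0.0124). At 8 h the changes were -0.16 for CDC25A (0.533), -0.32 for CDC25C (0.125) and -0.18 for CDC25B (0.494). The 8 h change of CDC25C was called without 20 h replicate 1 (0.0394) and with only the 8 h and control arrays in the fit (0.0275). CDC25B was lower at 20 h than at 8 h by 0.34 (0.0926). This difference was called in 4 of 19 alternatives, among them leaving out control replicate 3 (0.00964).

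All 6 mitotic kinases and cofactors measured fell at 20 h, 5 of them at least 2-fold. Among all genes, 17.2% were lower and 3.91% lower at least 2-fold. BORA, which lets Aurora A activate PLK1, was at 4.21, 4.55 and 4.26 on the 20 h arrays, 4.94, 5.04 and 5.40 on the 8 h arrays and 6.50, 6.45 and 5.85 on the control arrays. The groups did not overlap, although control replicate 3 was closer to the 8 h arrays than the other controls. BORA fell by 1.93 (SE 0.19, adjusted p = 2.6e-05) at 20 h and by 1.14 (SE 0.19, adjusted p = 0.00297) at 8 h. Its difference of -0.78 between 20 h and 8 h (0.0121) was lost without 8 h replicate 3 (0.0543).

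TPX2, the microtubule-bound activator of Aurora A, was at 8.21, 8.32 and 8.25 on the 20 h arrays, 9.72, 9.75 and 9.69 on the 8 h arrays and 10.05, 10.03 and 9.95 on the control arrays. The groups were again apart. It fell by 1.75 (SE 0.07, adjusted p = 1.84e-07) at 20 h and by 0.29 (SE 0.07, adjusted p = 0.0285) at 8 h. The 8 h call was lost with the replicate block (0.0617), with 8 h replicates 1 and 2 as 1 sample (0.0718), without control replicate 1 (0.0886) or 2 (0.0811) and without 8 h replicate 1 (0.0837), 2 (0.0657) or 3 (0.0822).

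PLK1, the polo-like kinase of mitotic entry and exit, fell by 1.26 (SE 0.08, adjusted p = 1.93e-06) at 20 h, to 41.7% of control. AURKB, the kinase of the chromosomal passenger complex, fell by 1.21 (SE 0.10, adjusted p = 8.41e-06) and HMMR, a spindle protein that binds TPX2, by 1.08 (SE 0.13, adjusted p = 0.000105). AURKA fell least, by 0.63 (SE 0.16, adjusted p = 0.0135), with 20 h replicate 2 and control replicate 3 both at 5.82. Its call was lost without control replicate 1 (0.0525) or 20 h replicate 1 (0.0553) or 3 (0.0551). At 8 h none of these 4 was called, with changes from -0.30 (AURKA) to -0.04 (AURKB), and AURKA was called without control replicate 3 (0.0481).

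FOXM1 and MYBL2, the transcription factors of the G2 and M phase genes, fell at 20 h. FOXM1 was at 6.87, 6.70 and 6.87 on the 20 h arrays, 8.08, 8.08 and 8.00 on the 8 h arrays and 8.11, 8.13 and 8.68 on the control arrays. MYBL2, which encodes B-MYB, was at 7.06, 6.96 and 6.94 on the 20 h arrays, 8.46, 8.49 and 8.10 on the 8 h arrays and 8.44, 8.28 and 9.06 on the control arrays. The 20 h arrays were lowest for both, and control replicate 3 was the highest array for both. FOXM1 fell by 1.49 (SE 0.14, adjusted p = 2.29e-05) and MYBL2 fell by 1.61 (SE 0.18, adjusted p = 8.55e-05). Their 8 h changes of -0.25 each were not called (0.327 and 0.491).

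Of the 8 ubiquitin ligase, securin and separase genes, 6 were lower and 1 higher at 20 h, and 5 were lower and 1 higher at 8 h. SKP2 is the F-box protein that directs SCF to p27. It was at 6.43, 6.28 and 6.51 on the 20 h arrays, 7.30, 7.37 and 7.33 on the 8 h arrays and 8.50, 8.40 and 8.62 on the control arrays. The groups were far apart beside their spread of at most 0.11 (SD). SKP2 fell by 2.10 (SE 0.09, adjusted p = 1.84e-07) at 20 h, to 23.3% of control, and fell by 1.17 (SE 0.09, adjusted p = 3.91e-05) at 8 h, to 44.4%.

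CCNF encodes cyclin F, which binds no CDK and is the substrate receptor of another SCF ligase. It was at 4.240, 4.561 and 4.334 on the 20 h arrays, 4.812, 5.085 and 5.032 on the 8 h arrays and 6.003, 6.060 and 6.276 on the control arrays, without overlap. CCNF fell by 1.74 (SE 0.12, adjusted p = 2.54e-06) at 20 h and by 1.14 (SE 0.12, adjusted p = 0.000206) at 8 h.

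FBXO5, which encodes the APC/C inhibitor EMI1, fell by 1.42 (SE 0.12, adjusted p = 1.17e-05) at 20 h and by 0.65 (SE 0.12, adjusted p = 0.00603) at 8 h. CDC20, the APC/C activator of mitosis, fell by 0.74 (SE 0.09, adjusted p = 0.000172) at 20 h and 0.56 (SE 0.09, adjusted p = 0.00392) at 8 h, and was not called between 20 h and 8 h (0.199). UBE2C, the ubiquitin-conjugating enzyme of the APC/C, fell by 0.98 (SE 0.08, adjusted p = 8.15e-06) at 20 h. Its 8 h change of -0.27 (0.0538) was called in 5 of 19 alternatives. Among them were quantile normalization again (0.0389) and leaving out control replicate 2 (0.0396). FZR1, the APC/C activator of G1 also known as CDH1, changed by 0.13 (0.501) at 20 h and 0.02 (0.95) at 8 h.

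Separase and securin moved apart. ESPL1, the protease that cuts cohesin, fell by 1.45 (SE 0.14, adjusted p = 3e-05) at 20 h and by 0.58 (SE 0.14, adjusted p = 0.0257) at 8 h. The 8 h call was lost without control replicate 1 (0.0524) or 3 (0.0704), without 8 h replicate 1 (0.0745) or 3 (0.0989) and with 8 h replicates 1 and 2 as 1 sample (0.0504). PTTG1, its inhibitor securin, was at 5.23, 5.13 and 4.80 on the 20 h arrays, 5.15, 4.71 and 5.17 on the 8 h arrays and 4.31, 4.35 and 4.18 on the control arrays. Every treated array was above every control, and the 2 treated groups overlapped. PTTG1 rose by 0.78 (SE 0.14, adjusted p = 0.00214) at 20 h and by 0.73 (SE 0.14, adjusted p = 0.00872) at 8 h.

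Other genes of the same machinery were counted in lists. Of all genes, 13.1% were higher and 17.2% lower at 20 h, and 5.93% higher and 6.28% lower at 8 h. Cyclins and CDKs outside the core cycle, among them the kinases and cyclins of transcription, gave 9 of 29 higher and 5 lower at 20 h, and 9 higher and 1 lower at 8 h, with medians of 0.18 and 0.16. CCNA1, for cyclin A1, a germ cell relative of cyclin A2, rose by 2.92 (SE 0.17, adjusted p = 9.64e-07) at 20 h, while CDK5 fell by 0.72. CCNA1 had a mean of 6.01 ± 0.17 on the 20 h arrays, 4.45 ± 0.15 on the 8 h arrays and 3.09 ± 0.36 on the control arrays (SD, n = 3 each). Subunits of the APC/C and SCF gave 3 of 22 higher and 10 lower at 20 h, with CDC34, an SCF ubiquitin-conjugating enzyme, up by 1.15 while ANAPC4 fell by 1.55. At 8 h 3 were higher and 2 lower.

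RB, E2F and MuvB genes gave 4 of 17 higher and 11 lower at 20 h, from LIN37, up by 0.89, to RBL1, which encodes p107 and fell by 2.30. At 8 h 1 was higher and 3 lower. Mitotic phosphatases and the Greatwall pathway gave 2 of 11 higher and 4 lower at 20 h, and the Greatwall kinase MASTL fell by 1.87. At 8 h 2 were higher and 1 lower. Antiproliferative genes gave 8 of 11 higher and 1 lower at 20 h, and 5 higher and 0 lower at 8 h. The lower gene, CCNG1, was also counted among the other cyclins and CDKs. GADD45B rose most at 20 h, by 2.75. CDKN1A, which encodes the CDK inhibitor p21 and was picked out after its values were seen, rose by 1.78 (SE 0.11, adjusted p = 1.56e-06) at 20 h and by 0.96 (SE 0.11, adjusted p = 0.000433) at 8 h. These counts stand beside the shares of all genes given above and were not tested as sets. Some lay near those shares. Lower at 20 h were 17.2% of the other cyclins and CDKs. Higher were 13.6% of the APC/C and SCF subunits at 20 h and 5.88% of the RB, E2F and MuvB genes at 8 h.

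**Figure D4:**
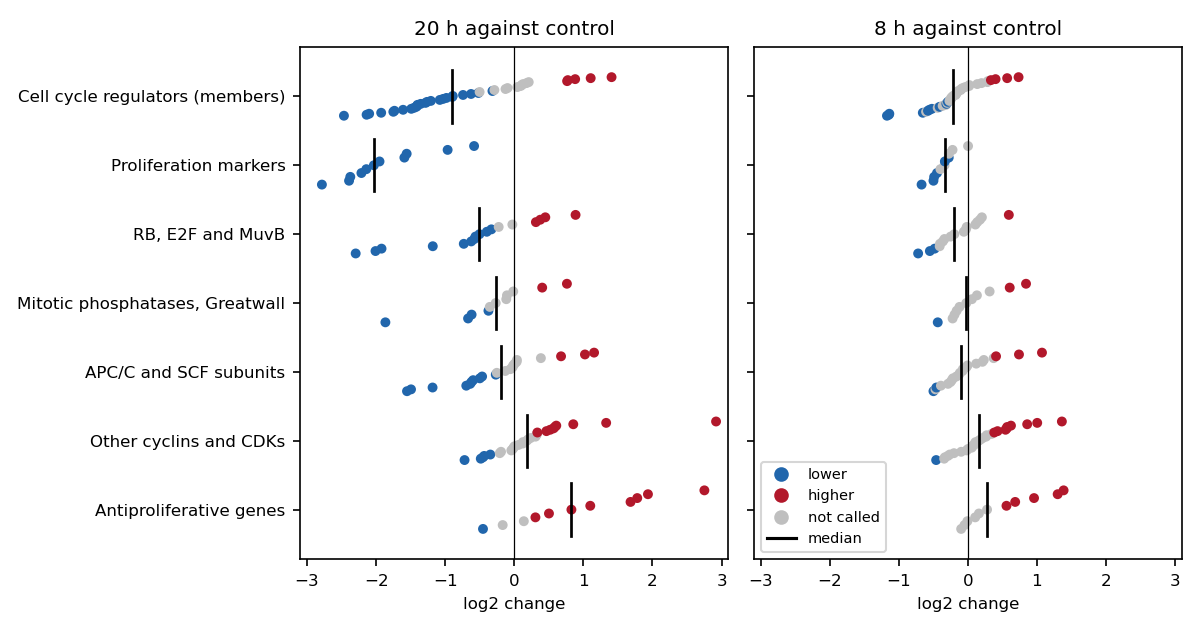
Log2 change against control at 20 h (left) and 8 h (right) for the 40 genes and 6 other lists. Each point is a gene, black bars are medians, and colours give the call. At 20 h the median is -0.90 for the 40 genes, -2.03 for proliferation markers and 0.83 for antiproliferative genes.

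Markers of other cell types were mostly low. Among all genes, 13.1% were higher at 20 h and 5.93% at 8 h. At 20 h 4 of 9 leukocyte markers were called higher (CD14, by 0.77, CD79A, CD3D and ITGAM), with a mean level of 2.84 to 3.03 on the 20 h arrays, 2.73 to 2.80 on the 8 h arrays and 2.63 to 2.70 on the control arrays. No fibroblast or endothelial marker of 7 was called in any comparison, where 12.2% to 30.3% of all genes were. Of 10 luminal markers, TFF1 rose by 1.38 and AGR2 by 0.87 at 20 h, and TFF1 and CDH1 were higher at 8 h. That was 20.0% of this list at each time, with none called lower. The mean luminal level was 4.29 to 4.40 on the 20 h arrays, 4.05 to 4.15 on the 8 h arrays and 4.04 to 4.15 on the control arrays. Their part in the changes above was not tested.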

How the data were processed

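The deposited values are log2 summaries of Affymetrix whole-transcript arrays, made by the authors with RMA in Affymetrix Expression Console, per the submitters' processing notes. Versions and build were not given in the sources used here. The values were used as deposited, without further normalization or filter. Of 53617 probe sets, 23558 carried 1 gene symbol in the platform annotation, 2155 several, and 27904 were outside it. The brightest probe set per gene by its mean over the 9 arrays gave 22109 genes. limma 3.58.1 in R 4.3.3 fitted 3 group means to all arrays (lmFit, eBayes, 6 residual and 4.01 prior degrees of freedom), two-sided, with Benjamini-Hochberg adjustment over all genes. The fit was tested on simulated data.

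The members and lists were chosen with earlier results of these data known. Levels on every array are given for, in each of 8 role groups, the called gene with the largest rise and the 2 with the largest falls at each time, for every gene called higher, and for genes of opposite sign at 8 h and 20 h that differed between them. CDK4 was added after its values were seen. From the other lists, the largest rise and fall at 20 h could be named. CDKN1A was added likewise. No protein sequences were used.

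Alternatives were genes at or above the median level, all probe sets, the mean of probe sets, quantile normalization again, array centring, only the compared groups, array weights, a trended and robust variance, the replicate number as a block, 8 h replicates 1 and 2 as 1, a 2-fold threshold and leaving out each array. The number of arrays, not a depth of reads, limits the precision. Tables and figures were made in Python 3.11.15 with pandas 2.3.3 and matplotlib 3.10.9.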

Additional observations from a re-analysis of the deposited data

Results flagged for a closer look

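CDKN3 was the only gene of the 40 whose changes against control had opposite signs at 20 h (-1.41) and 8 h (0.14) together with a called difference between 20 h and 8 h, of -1.54 (SE 0.19, limma adjusted p = 0.000291). Its 8 h change was itself not called (adjusted p = 0.744), and dose differed along with time. The sign of the 8 h change was not stable. Without control replicate 3, the lowest control array for CDKN3, it was -0.087, the same sign as at 20 h. With array weights the 8 h change was negative too. The cause of the difference between 20 h and 8 h was not tested.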

How the results depend on the processing

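Of the called genes, 28 of 30 at 20 h against control, 23 of 26 at 20 h against 8 h and 8 of 14 at 8 h against control kept their call and direction in every one of 19 alternatives, and no called gene changed sign. The 19 do not include the 2-fold threshold. Each gene had 1 probe set, so the alternatives on probe sets could not move its log2 change. Leaving out an array of the group not compared could not move it either. With a 2-fold threshold, 0 genes were higher and 3 lower at 8 h, and 2 higher and 18 lower at 20 h. With 8 h replicates 1 and 2 as 1 sample, 6 were lower at 8 h. Leaving out 1 array at a time gave 2 to 6 higher and 6 to 11 lower at 8 h, 5 to 6 higher and 24 to 25 lower at 20 h, and 3 to 4 higher and 21 to 23 lower at 20 h against 8 h. Deviations of same-numbered arrays correlated between -0.318 and 0.111. Differently numbered arrays were not correlated for reference, so these values cannot show whether the numbers stand for a pairing. With the replicate number as a block, 4 were higher and 7 lower at 8 h, 5 and 25 at 20 h, and 4 and 22 at 20 h against 8 h. Where a call was lost or gained, the cause was not tested. The number of arrays, 3 a group, limits the precision.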
